A study of Mus musculus with 36 samples.

Results

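The subunits of oxidative phosphorylation that are encoded in the nucleus were represented by 81 of the 23982 probes of the arrays, for 71 of the 14739 genes named on them. They were taken as every probe whose annotated symbol, among the 19344 probes with one, names an Nduf subunit (Nduf followed by a, b, c, s or v and a digit), an Sdh subunit, or a gene beginning with Uqcr, Cox4 to Cox8 or Atp5. Grouped by symbol, 33 probes of 28 genes belonged to complex I, 5 probes of 3 genes to complex II, 8 probes of 8 genes to complex III, 18 probes of 16 genes to complex IV and 17 probes of 16 genes to complex V. More than 1 probe stood for 9 of the genes. Sdha, Cox8c and Ndufa4l2 had no probe among them, and subunits encoded by mitochondrial DNA are not covered. Ndufa4 is counted with complex I by its symbol, although the protein is now placed in complex IV.

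Oxidative phosphorylation makes most of the ATP of resting cells. Complex I takes electrons from NADH and complex II from succinate, complex III passes them to cytochrome c, and complex IV hands them to oxygen. The protons pumped on the way drive complex V, the ATP synthase. In liver this machinery supplies the ATP for gluconeogenesis and urea synthesis, and in lymphoid tissue it is known to increase when lymphocytes are activated. Several complex IV subunits come as pairs of isoforms, with a widely expressed form and a form found mainly in striated muscle or brown fat.

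RNA from spleens and livers of male mice of the BALB/c strain had been measured on 36 biotin-labelled Illumina BeadChip arrays, 3 in each of 12 groups. Every mouse carried J558 cells, a mouse myeloma line, placed under the skin at the neck, and ate standard chow. The drink, taken freely, was either oil palm phenolics (OPP, a water-soluble polyphenol extract) at 1500 ppm gallic acid equivalents or distilled water. In each tissue there were OPP and water groups labelled 18 hours, 1 week and 4 weeks, whose mice were 6, 7 and 10 weeks old, so that time and age cannot be told apart. The treatment text of all samples speaks of 4 weeks after inoculation, the labels do not say when the drinks began, and so what the times were counted from is not settled. No mouse without J558 cells is among the samples, and the labels do not say whether an array holds 1 mouse or a pool.

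The deposited values are linear ratios, with the median of a probe across the 18 arrays of one tissue set to 1, so that 1 is the typical value of that probe in that tissue. A ratio keeps no level: how strongly a subunit is expressed, and which of 2 subunits is the more abundant, cannot be read from it, nor can the tissue of an array be checked. Some arrays stood apart. Hepatocyte markers (14 probes of 11 genes) had median log2 ratios of 1.58, 1.36 and 1.29 in spleen replicates 2 and 3 of the water group at 18 hours and replicate 1 of the OPP group at 1 week, and at most 0.29 on the other spleen arrays. Striated muscle markers (10 probes of 8 genes) had medians of 1.56 and 2.89 in liver replicates 2 and 3 of the OPP group at 18 hours, 1.33 in replicate 3 of the OPP group at 4 weeks and 4.49 in replicate 3 of the water group at 1 week, and at most 0.21 on the other liver arrays. Pancreatic acinar markers ranged from -6.64 to 0.52 over the spleen arrays and from -0.12 to 4.78 over the liver arrays. Whether the lowest of these stands at a floor of the deposited ratios was not tested.

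Because many of the subunits moved together, the promoters of a few of them are shown first. Cox6a1 rose in spleen, and Ndufa4 and Uqcrc1 rose in both tissues. A probe of Sdhb rose in liver in both drinks and in spleen of OPP mice, while its other probe was not called in liver. Cox7b fell in liver, and Atp5k fell in liver and rose in spleen of water mice. Cox8b is a muscle isoform. Each promoter is 250 bases before to 50 bases after the gene's start, 5′ to 3′ on the gene's own strand, from RefSeq on GRCm38.p6. Capitals mark matches, on either strand, to 4 motifs of factors known to act on respiratory genes: GCGCATG for NRF1, CCGGAAG for the ETS factor GABPA, ATGGCGG for YY1 and AAGGTCA for the ERR receptors. Cox6a1 lies at chr5:115348909-115349208, minus strand, Ndufa4 at chr6:11907401-11907700, minus strand, Uqcrc1 at chr9:108936398-108936697, plus strand, Sdhb at chr4:140961021-140961320, plus strand, Cox7b at chrX:106015450-106015749, plus strand, Atp5k at chr5:108434350-108434649, minus strand, and Cox8b at chr7:140900397-140900696, minus strand.
Cox6a1: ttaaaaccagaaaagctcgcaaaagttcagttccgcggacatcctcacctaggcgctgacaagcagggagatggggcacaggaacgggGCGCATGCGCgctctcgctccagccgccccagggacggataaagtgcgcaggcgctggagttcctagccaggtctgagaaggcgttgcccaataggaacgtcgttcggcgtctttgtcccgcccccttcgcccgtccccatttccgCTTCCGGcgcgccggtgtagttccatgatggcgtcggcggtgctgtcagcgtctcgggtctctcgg
Ndufa4: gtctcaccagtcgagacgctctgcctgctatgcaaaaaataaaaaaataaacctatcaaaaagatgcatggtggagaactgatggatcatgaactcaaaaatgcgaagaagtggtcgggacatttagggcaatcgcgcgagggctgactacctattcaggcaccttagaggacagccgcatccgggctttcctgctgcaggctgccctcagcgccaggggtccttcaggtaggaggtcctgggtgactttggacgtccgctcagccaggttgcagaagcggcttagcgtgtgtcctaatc
Uqcrc1: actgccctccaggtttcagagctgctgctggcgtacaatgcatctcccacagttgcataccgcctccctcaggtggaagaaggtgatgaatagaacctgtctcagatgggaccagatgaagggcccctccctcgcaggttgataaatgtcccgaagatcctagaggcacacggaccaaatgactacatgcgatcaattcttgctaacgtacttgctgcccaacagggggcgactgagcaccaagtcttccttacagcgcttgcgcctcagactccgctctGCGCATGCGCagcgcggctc
Sdhb: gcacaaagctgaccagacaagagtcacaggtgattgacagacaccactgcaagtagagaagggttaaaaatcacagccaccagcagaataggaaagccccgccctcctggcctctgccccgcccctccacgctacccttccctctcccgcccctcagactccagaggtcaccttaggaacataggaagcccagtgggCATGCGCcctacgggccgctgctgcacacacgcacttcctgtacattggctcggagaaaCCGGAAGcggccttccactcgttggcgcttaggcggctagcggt
Cox7b: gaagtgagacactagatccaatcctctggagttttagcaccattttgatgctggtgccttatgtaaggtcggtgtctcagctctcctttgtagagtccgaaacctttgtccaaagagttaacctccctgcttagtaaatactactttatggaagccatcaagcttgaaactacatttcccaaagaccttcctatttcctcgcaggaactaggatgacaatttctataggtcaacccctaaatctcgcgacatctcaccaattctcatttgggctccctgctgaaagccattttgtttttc
Atp5k: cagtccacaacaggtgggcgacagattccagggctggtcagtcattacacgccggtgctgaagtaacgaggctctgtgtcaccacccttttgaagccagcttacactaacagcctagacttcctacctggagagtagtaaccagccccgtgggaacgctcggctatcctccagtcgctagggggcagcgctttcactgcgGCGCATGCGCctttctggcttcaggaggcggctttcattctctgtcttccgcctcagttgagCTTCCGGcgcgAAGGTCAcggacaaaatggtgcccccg
Cox8b: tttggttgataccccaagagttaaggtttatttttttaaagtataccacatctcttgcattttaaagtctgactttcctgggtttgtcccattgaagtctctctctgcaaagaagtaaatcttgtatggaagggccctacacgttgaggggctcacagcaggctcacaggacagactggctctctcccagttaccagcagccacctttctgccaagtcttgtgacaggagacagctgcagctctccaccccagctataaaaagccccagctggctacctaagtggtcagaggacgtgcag
Cox6a1 and Sdhb each hold an NRF1 and a GABPA match, Uqcrc1 an NRF1 match and Atp5k an NRF1, a GABPA and an ERR match, and these letters are absent from the windows of Ndufa4, Cox7b and Cox8b. At least 1 of the 4 motifs stood in 31 of the 58 member genes with a promoter in the table (53.4%), in 27 of the 47 genes higher in spleen of OPP mice at 4 weeks (57.4%), in 4 of the 11 not called there (36.4%) and in 3 of the 5 lower in liver at 4 weeks in either drink (60%). The share of all genes with at least 1 of the 4 motifs was not worked out, and whether these classes of members differ was not tested. In Cox6a1, Uqcrc1 and Atp5k the NRF1 letters match on both strands with overlap. Of the 71 genes, 58 had a promoter in the table. The NRF1 letters stood in 10 of them (17.2%), against 4.41% of 27025 genes, the GABPA letters in 14 (24.1%), against 9.93%, the YY1 letters in 9 (15.5%), against 4.69%, and the ERR letters in 6 (10.3%), against 5.38%. A match describes the letters and does not show that a factor binds there.

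Within spleen the subunits varied as a block. The SD of the log2 ratio over the 18 arrays had a median of 0.29 over the members, against 0.18 over all probes, and the correlation of a member with the median of the other members had a median of 0.91, being over 0.8 for 57 of 81 probes. In liver these values were 0.18 for the SD, against 0.14, and 0.78 for the correlation, with 33 probes over 0.8 and 18 below 0. These correlations are over arrays that share their groups and their scaling and are given as a description. The probes that did not follow the rest in spleen were those of Cox4i2, Cox8b, Cox7b2, Ndufs1 and Atp5md and 1 probe each of Ndufc1 and Ndufv3, all with a correlation below 0.

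In spleen the median log2 ratio of the members was -0.32, -0.30 and -0.19 on the OPP arrays of 18 hours, -0.16, -0.11 and -0.01 at 1 week and 0.28, 0.37 and 0.40 at 4 weeks. On the water arrays it was -0.09, -0.02 and 0.00 at 18 hours, -0.29, 0.04 and 0.09 at 1 week and 0.18, 0.27 and 0.43 at 4 weeks. All 6 arrays of 4 weeks lay above all 12 earlier ones, and at 1 week replicate 3 of the water group lay well below the other two. The median of all probes ran from -0.06 to 0.11 over the same arrays and had a correlation of 0.92 with that of the members (n = 18). In liver the members' median ran from -0.20 to 0.16, with all 6 arrays of 18 hours, OPP and water, below 0, and the median of all probes from -0.03 to 0.04.

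**Figure D1:**
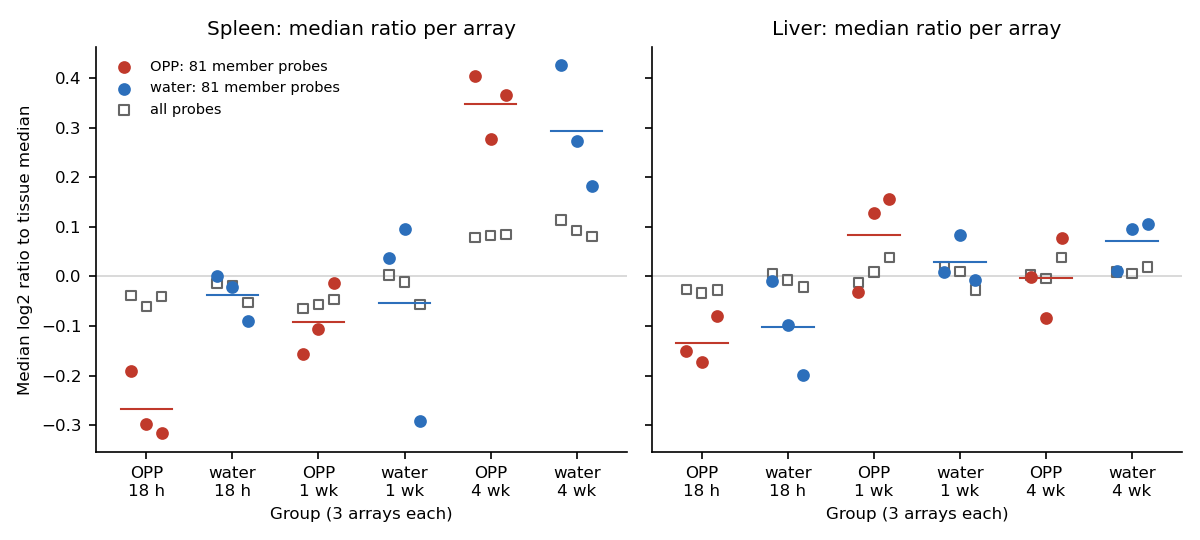
Median log2 ratio to the tissue's own probe medians on each array (vertical axis), for the 81 subunit probes (filled points, OPP red and water blue, bars at the group mean) and for all 23982 probes (open squares), in spleen and liver by group (horizontal axis, 3 arrays each). In spleen the 4-week arrays sit between 0.18 and 0.43, above every earlier array, while the all-probe medians reach 0.11.

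With time in spleen, subunits of all 5 complexes rose. Comparing 4 weeks with 18 hours, 61 of the 81 probes rose and none fell in OPP mice (75.3%), where 27% of all probes rose and 1.05% fell. In water mice 42 probes rose and none fell (51.9%), where 23% of all probes rose and 1.34% fell. The median difference of the members was 0.62 on the log2 scale in OPP mice and 0.35 in water mice, against 0.11 and 0.14 for all probes. The 2 comparisons share no array, and 40 probes rose in both, which is 65.6% of the OPP list and 95.2% of the water list. Whether the change with time differed between the drinks is covered by the test across times given further on, which called no member.

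Complex I, the entry point for NADH, had 29 of 33 probes higher in OPP mice and 18 of 33 in water mice. Of all probes 27% and 23% rose there. Ndufa6, an accessory subunit, had 1.31, 1.42 and 1.42 in water mice at 4 weeks, against 0.927, 0.905 and 0.926 at 18 hours, a difference of 0.59 (SE 0.10, adjusted p = 0.000907). Ndufb9, an accessory subunit of the membrane arm, had 1.59, 1.38 and 1.30 in water mice at 4 weeks, against 0.915, 0.845 and 0.851 at 18 hours, a difference of 0.71 (SE 0.12, adjusted p = 0.00123). The 4-week arrays were above the 18-hour arrays for these genes, without overlap. Ndufa2 rose by 0.94 in OPP mice (SE 0.12) and by 0.59 in water mice (SE 0.12). Ndufv1, which carries the NADH-binding site, rose by 0.90 in OPP mice (SE 0.12) and by 0.57 in water mice (SE 0.12). Ndufa4 had ratios of 1.68, 1.72 and 1.95 in OPP mice at 4 weeks, against 0.853, 0.660 and 0.769 at 18 hours, the highest difference of complex I there at 1.23 (SE 0.13, adjusted p = 4.45e-06). Ndufs1, the large iron-sulphur subunit of the NADH-oxidising arm, was not called, with -0.17 (adjusted p = 0.31) in OPP mice and 0.15 (adjusted p = 0.35) in water mice, and its ratios stayed between 0.841 and 1.20 on all 18 spleen arrays.

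Complex II, which is also the succinate dehydrogenase of the citric acid cycle, had 3 of 5 probes higher in OPP mice and 2 of 5 in water mice. Of all probes 27% and 23% rose there. Sdhd, a membrane anchor, rose by 0.80 in OPP mice and by 0.48 in water mice. For Sdhb, the iron-sulphur subunit, 1 probe had ratios of 1.31, 1.28 and 1.29 in OPP mice at 4 weeks, against 0.849, 0.926 and 0.775 at 18 hours, a difference of 0.61 (SE 0.10, adjusted p = 0.000151). In water mice the same probe differed by 0.27 and was not called (adjusted p = 0.062). Complex III had 7 of 8 probes higher in OPP mice and 6 of 8 in water mice. Its core proteins rose, Uqcrc1 by 0.75 (SE 0.13) in OPP mice and 0.40 (SE 0.13) in water mice, and Uqcrc2 by 0.94 and 0.49. Uqcrfs1, the Rieske iron-sulphur protein, rose by 0.40 in OPP mice (SE 0.13) and by 0.53 in water mice (SE 0.13). Uqcrq, a small ubiquinone-binding subunit, was not called in either, at 0.10 and 0.14.

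Complex IV had 11 of 18 probes higher in OPP mice and 7 of 18 in water mice, where 27% and 23% of all probes rose. Of the widely expressed forms, 8 of 9 probes rose in OPP mice and 5 of 9 in water mice, while of the tissue-restricted forms (Cox4i2, Cox6a2, Cox6b2, Cox7a1, Cox7b2 and Cox8b) 0 of 6 probes passed in either drink. The 9 include the probe of Ndufa4, which rose in both drinks and is counted with complex I, not among the 18, elsewhere in the text. Cox6a1, a regulatory subunit, had ratios of 1.41, 1.60 and 1.66 in OPP mice at 4 weeks, against 0.726, 0.693 and 0.785 at 18 hours, a difference of 1.08 (SE 0.12, adjusted p = 3.86e-06). Its other probe gave 0.94, and the 2 probes had a correlation of 0.97 over the spleen arrays. Cox4i1 rose by 0.54 in OPP mice (SE 0.10) and by 0.37 in water mice (SE 0.10), and Cox5b by 0.79 (SE 0.12) and 0.37 (SE 0.12). Cox6a2, the muscle counterpart of Cox6a1, differed by 0.16 and 0.20 and was not called. Cox6b2 was not called either, but it differed by 0.38 in OPP mice and by 0.49 in water mice. The 2 probes of its counterpart Cox6b1 had 0.78 and 0.71 in OPP mice and 0.41 and 0.26 in water mice. Since ratios keep no level, whether the tissue-restricted forms are expressed in spleen at all was not measured.

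Complex V had 11 of 17 probes higher in OPP mice and 9 of 17 in water mice, where 27% and 23% of all probes rose. Atp5b, the catalytic beta subunit, had ratios of 1.65, 1.33 and 1.60 in OPP mice at 4 weeks, against 0.889, 0.448 and 0.527 at 18 hours. Its difference of 1.35 was the highest of all members in that comparison (SE 0.24, adjusted p = 0.000243), and the groups did not overlap. In water mice Atp5b had 1.31, 1.11 and 0.991 at 4 weeks, against 0.683, 0.786 and 0.864 at 18 hours, and 0.55 did not pass (adjusted p = 0.11). Atp5h, a stalk subunit, rose by 1.00 in OPP mice (SE 0.12, adjusted p = 1.02e-05) and by 0.62 in water mice (SE 0.12, adjusted p = 0.00224). Atp5a1, the alpha subunit, rose by 0.48 in OPP mice (SE 0.13), and its 0.34 in water mice did not pass (adjusted p = 0.052).

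Other measures moved with the subunits in spleen. The median log2 ratio of proliferation markers (6 probes of 3 genes) was 0.51 to 0.64 in OPP mice at 4 weeks, against -1.27 to -0.62 at 18 hours, and 0.30 to 0.39 in water mice at 4 weeks, against -1.10 to -0.44 at 18 hours. Erythroid markers (8 probes of 6 genes) lay at 0.37 to 0.46 in OPP mice at 4 weeks, against -0.80 to -0.21, and at 0.21 to 0.33 in water mice, against -0.84 to -0.40. Over the 18 spleen arrays the members' median had a correlation of 0.83 with the proliferation median, 0.82 with the erythroid median and 0.72 with the B cell median. These were below its correlation of 0.92 with the median of all probes. With the macrophage, hepatocyte and neutrophil medians it was 0.22, -0.14 and -0.38. On replicate 3 of the water group at 1 week, where the members were lowest at that time, the proliferation median was the lowest of the 1-week arrays, at a ratio of 0.499, and the erythroid median was -0.77 on the log2 scale. The part of these cells in the rise was not tested, and in bulk tissue fewer cells of a type and less RNA per cell cannot be told apart.

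With the arrays put on another scale the count of called members changed little in OPP mice and was much lower in water mice. After each array was centred on its median, 55 members were higher and 1 lower in OPP mice, where 19.4% and 5.62% of all probes were called, and 15 were higher and 1 lower in water mice, where 10.4% and 4.09% were. The probe called lower was of Ndufv3 in OPP mice and of Cox4i2 in water mice. After quantile normalisation 53 were higher and 1 lower in OPP mice, where 16% and 8.19% of all probes were called, and 10 higher and 1 lower in water mice, where 8.47% and 5.25% were. Without the 2 water arrays of 18 hours with raised hepatocyte markers 0 members passed in water mice, where 1 array of 18 hours was left and was taken to vary like the others. None of the arrays with raised hepatocyte markers is in the comparison of OPP mice. In that fit 1.48% of all probes rose in water mice, limma gave 28 members an unadjusted p under 0.05, and the members' median difference was 0.32. Leaving out only replicate 1 of the water group at 4 weeks gave 14 members, and only replicate 3 of the water group at 18 hours gave 26. The share of all probes called in those fits was not worked out.

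At 1 week few members passed the test in spleen. In OPP mice 2 members rose against 18 hours, where 2.32% of all probes did: Atp5h by 0.48 (SE 0.12, adjusted p = 0.0375) and Cox7a2, a widely expressed complex IV subunit, by 0.45 (SE 0.13, adjusted p = 0.0499). Leaving out any of the 6 compared arrays gave at most 1 called member, and 0 in 5 of those 6 fits. The differences of OPP mice were mostly above 0: 66 of 81 probes, with a median of 0.12, against -0.0083 over all probes. An unadjusted p under 0.05 was reached by 26 members (32.1%, 25 of them higher), against 19.8% of all probes, and in 30 members (37%) the 3 arrays of 1 week lay above those of 18 hours, as in 12.9% of all probes. In water mice limma called 0 members, where 0.65% of all probes were called, and 12 had an unadjusted p under 0.05 (14.8%, against 12.6% of all probes), 6 in each direction. The lowest p there belonged to Cox7b at -0.41, to a probe of Sdhb at -0.53 and to a probe of Sdhc at -0.39. Without replicate 3 of the water group at 1 week, 3 members passed.

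In liver subunits rose at 1 week and at 4 weeks, and a few fell. In OPP mice 31 members rose and none fell at 1 week against 18 hours, where 14.7% and 2.61% of all probes did, and 20 rose and 5 fell at 4 weeks, where 13.7% and 3.16% did. In water mice 15 rose and 2 fell at 1 week, where 4.46% and 2.66% of all probes did, and 22 rose and 4 fell at 4 weeks, where 5.91% and 3.29% did. The members' median difference was 0.23 at 1 week and 0.13 at 4 weeks in OPP mice, and 0.12 and 0.18 in water mice. At 1 week all 15 probes that rose in water mice also rose in OPP mice, which is 48.4% of the OPP list. At 4 weeks 15 probes rose in both, 75% of the OPP list and 68.2% of the water list, and 4 fell in both, 80% and 100% of those lists.

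**Figure D2:**
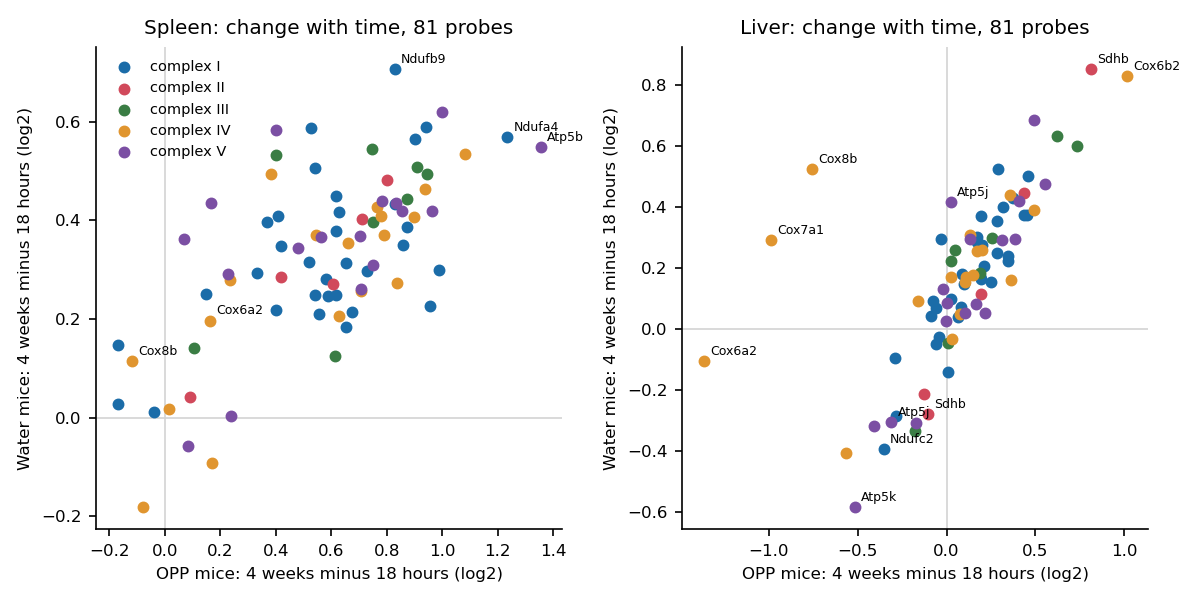
Difference in log2 ratio between 4 weeks and 18 hours for each of the 81 probes, in OPP mice (horizontal axis) and water mice (vertical axis), with colours for the complexes, in spleen (left) and liver (right). In spleen most probes lie above 0 on both axes, with Atp5b and Ndufa4 farthest out in OPP mice at 1.35 and 1.23. In liver Cox6b2 and a probe of Sdhb lie at the upper right. Atp5k and Ndufc2 lie at the lower left, and Cox6a2, Cox7a1 and Cox8b below 0 in OPP mice. The other probe of Sdhb has -0.11 in OPP mice and -0.28 in water mice.

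In each of these liver comparisons 2 of 5 probes of complex II and 2 or 3 of 8 of complex III rose. Of all probes 4.46% to 14.7% rose in them. The probe of Sdhb that rose had ratios of 0.629, 0.534 and 0.596 in OPP mice at 18 hours, 0.983, 1.13 and 1.12 at 1 week and 0.958, 0.971 and 1.17 at 4 weeks. In water mice it had 0.665, 0.744 and 0.492 at 18 hours, 1.06, 1.10 and 1.02 at 1 week and 1.12, 1.10 and 1.17 at 4 weeks. Every array of 18 hours was below every later one in both drinks. The differences from 18 hours were 0.88 and 0.81 in OPP mice (SE 0.12, adjusted p = 7e-05 and 0.000145) and 0.76 and 0.85 in water mice (SE 0.12, adjusted p = 0.000607 and 0.00016). Uqcrc1 rose by 0.68 and 0.73 in OPP mice and by 0.62 and 0.60 in water mice (SE 0.13 each). Uqcrc2 rose by 0.62 at both times in OPP mice and by 0.50 and 0.63 in water mice. Within the complex the Rieske protein Uqcrfs1 went the other way, with a fall of 0.41 in water mice at 1 week (SE 0.11, adjusted p = 0.026), and it was not called in the other 3 liver comparisons, at -0.30 and -0.17 in OPP mice and at -0.33 in water mice at 4 weeks.

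Among complex IV and V subunits in liver, Cox6b2, an isoform known mainly from testis, had ratios of 0.497, 0.620 and 0.552 in OPP mice at 18 hours, 1.03, 1.32 and 1.46 at 1 week and 1.26, 1.14 and 0.974 at 4 weeks. It rose by 1.18 and 1.01 in OPP mice (SE 0.17), the highest called rise of the members at both times there, and by 0.69 and 0.83 in water mice (SE 0.17). Atp5g3, which encodes a membrane-ring subunit of the ATP synthase, rose by 0.57 and 0.49 in OPP mice and by 0.58 and 0.69 in water mice (SE 0.11, adjusted p = 0.00409 and 0.000699 in water mice). Atp5b rose by 0.37 and 0.39 in OPP mice (SE 0.10), and its 0.26 and 0.30 in water mice did not pass. Atp5a1, Cox4i1, Cox5b, Ndufs1 and Ndufv1 were called in no liver comparison of times. Complex I had 12 and 7 of 33 probes higher in OPP mice at 1 and 4 weeks, where 14.7% and 13.7% of all probes rose. In water mice it had 6 and 10 of 33, where 4.46% and 5.91% of all probes rose. Its differences were at most 0.55.

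The falls in liver at 4 weeks were in complexes I, IV and V. Cox7b, a small complex IV subunit, had ratios of 0.747, 0.750 and 0.822 in OPP mice at 4 weeks, against 1.14, 1.20 and 1.08 at 18 hours, a fall of 0.56 (SE 0.09, adjusted p = 0.000366). In water mice it had 0.817, 0.918 and 0.962 at 4 weeks, against 1.12, 1.34 and 1.12, a fall of 0.41 (SE 0.09, adjusted p = 0.00844). Atp5k, the e subunit that helps the ATP synthase form dimers, fell by 0.52 in OPP mice, where its groups overlapped, at 0.717, 0.771 and 0.912 at 4 weeks, against 1.25, 1.30 and 0.907 at 18 hours. In water mice it had 0.748, 0.904 and 0.931 at 4 weeks, against 1.12, 1.42 and 1.34 at 18 hours, and fell by 0.58 (SE 0.14, adjusted p = 0.0099). Ndufc2, a membrane-arm subunit of complex I, fell by 0.35 in OPP mice (SE 0.12, adjusted p = 0.0447) and by 0.39 in water mice (SE 0.12, adjusted p = 0.0399). Atp5e, the epsilon subunit, fell by 0.41 in OPP mice (SE 0.12, adjusted p = 0.0297) and had -0.32 in water mice, which was not called.

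The falls at 4 weeks of Cox7b and Ndufc2 in both drinks, of Atp5e in OPP mice and of Atp5k in water mice were also called after centring and after quantile normalisation. The liver counts depended on single arrays. Without the 4 arrays with raised muscle markers, 9 members passed in OPP mice at 1 week and 3 at 4 weeks, 1 of them higher and 2 lower, where 4.75% of all probes were called higher at 1 week, and 2.17% higher and 1.64% lower at 4 weeks. That fit keeps 1 OPP array of 18 hours, which was taken to vary like the others. The members' median difference was 0.23 at 1 week and 0.14 at 4 weeks in that fit, against 0.23 and 0.13 with all arrays. In water mice 12 members rose at 1 week in that fit, where 3.9% of all probes did, and none of the 4 arrays is in their 4-week comparison. After quantile normalisation 11 rose and 5 fell in OPP mice at 4 weeks, where 7.25% and 3.87% of all probes did. Leaving out replicate 3 of the water group at 18 hours gave 6 members at 1 week and 14 at 4 weeks, and replicate 1 of the water group at 1 week 8. In water mice at 1 week the count was also 10 without replicate 2 of the 18-hour group and 10 without replicate 2 of the 1-week group. At 4 weeks it was 16 without replicate 2 of the 18-hour group and 15 without replicate 3 of the 4-week group. In OPP mice at 1 week it was 16 without replicate 3 of the 1-week group, 19 without its replicate 2, and 20 and 19 without replicates 1 and 2 of the 18-hour group. At 4 weeks it was 16 without replicate 3 of the 4-week group. For these fits with a single array left out the share of all probes called was not worked out. Whether the members changed more than other probes is therefore not known. Hepatocyte markers in liver had medians of 0.10 to 0.22 in OPP mice at 4 weeks, against -0.18 to -0.11 at 18 hours, and 0.02 to 0.16 in water mice, against -0.17 to -0.01. Over the liver arrays the members' median had a correlation of 0.71 with the hepatocyte median, 0.74 with the erythroid median and 0.81 with that of all probes (n = 18). It was -0.53 with the proliferation median, and -0.13, -0.30 and -0.36 with the B cell, macrophage and neutrophil medians. The part of these in the rises was not tested.

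Probes of the same gene disagreed for several of these subunits. The Sdhb probe that rose had a partner with differences of 0.04 and -0.11 in OPP mice and -0.22 and -0.28 in water mice at 1 and 4 weeks, none called, and the correlation of the 2 over the liver arrays was -0.11. The partner had ratios of 1.08, 1.60 and 0.991 in water mice at 18 hours, where the first had 0.665, 0.744 and 0.492. For Sdhc, a membrane anchor, 1 probe rose by 0.44 to 0.57 in all 4 liver comparisons and the other had -0.21 to 0.05, with a correlation of -0.27. For Atp5j, coupling factor 6 of the ATP synthase, the 2 probes had 0.03, not called, and -0.31, called, in OPP mice at 4 weeks, and a correlation of -0.52. In water mice both were called at 4 weeks and in opposite directions, at 0.42 and -0.30. In spleen the probes of Ndufv3 and Ndufc1 disagreed likewise, with 0.56 and -0.17 and with 0.68 and -0.04 in OPP mice at 4 weeks. Those of Cox6a1, Cox6b1 and Ndufs4 agreed, with correlations of 0.63 to 0.97 in both tissues. The files do not tell which transcript each probe reads.

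**Figure D3:**
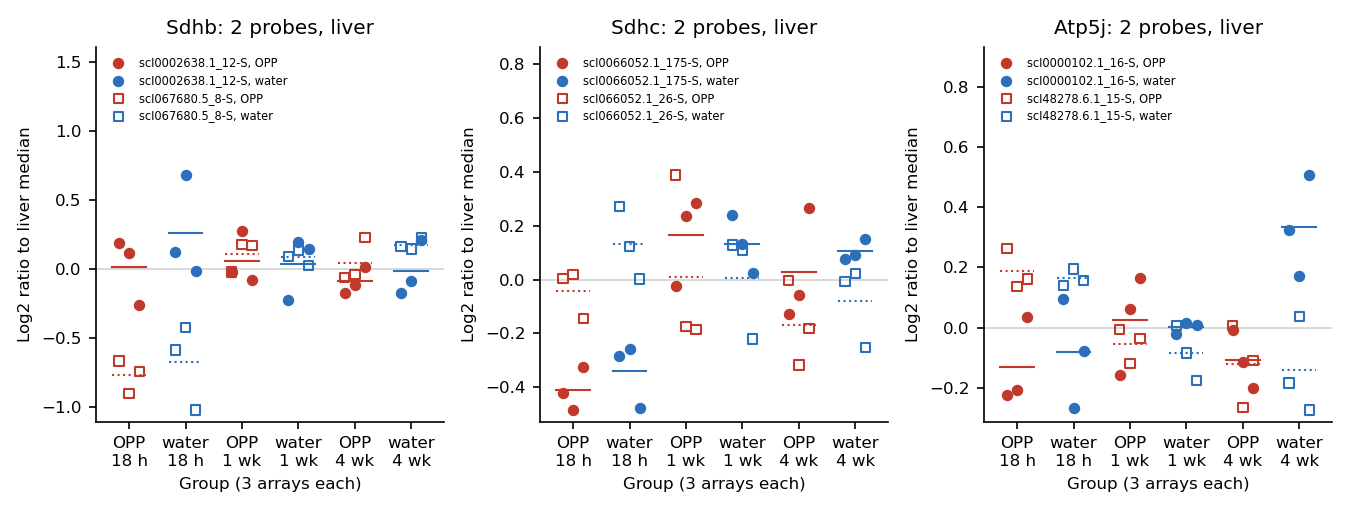
Log2 ratio on each of the 18 liver arrays (vertical axis) for the 2 probes of Sdhb, Sdhc and Atp5j, by group (horizontal axis, 3 arrays each), with filled points and solid bars for the probe listed first, open squares and dotted bars for the other, and OPP in red and water in blue. For Sdhb the open squares at 18 hours sit between 0.492 and 0.744 as ratios while the filled points reach 1.60, and for Atp5j the 2 probes part in water mice at 4 weeks.

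Over both tissues and both drinks, 7 probes (8.64% of the members) were higher at 4 weeks than at 18 hours in all 4 comparisons, as 1.78% of all probes were. They belong to Ndufa4 and Ndufa9 of complex I, Sdhc of complex II, Uqcrc1 and Uqcrc2 of complex III, and Atp5h and Atp5d of complex V. At the other end, 13 probes were called in none of the 4. They were those of Ndufs1, Ndufb11, Uqcrq, Atp5md and Atp5pb, the isoforms Cox4i2, Cox6a2, Cox7a1, Cox7b2 and Cox8b, and 1 probe each of Ndufc1, Sdhb and Sdhc. They make up 16% of the members, and the share called in none was 57.5% over all probes.

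The comparison of OPP with water asks whether the drink altered these genes at a given time. In the main limma fit it called no member in either tissue at any time. The mean of 3 times and the test of a difference across times called none either. The share of all probes called was 0% at 18 hours, 0.00834% at 1 week, 0.334% at 4 weeks and 1.69% for the mean in spleen, and 0%, 0.926%, 0.0625% and 0.346% in liver. In the test across times it was 0.00417% in spleen and 0.108% in liver, and the smallest adjusted p of a member was 0.664 in spleen, for Cox7c, and 0.405 in liver, for a probe of Atp5j. At an unadjusted p under 0.05 the members numbered 32, 6, 13 and 15 in spleen at 18 hours, 1 week, 4 weeks and for the mean, which is 39.5%, 7.41%, 16% and 18.5%, against 10.9%, 10.2%, 8.87% and 16.7% of all probes. In liver they numbered 1, 2, 4 and 4, which is 1.23%, 2.47%, 4.94% and 4.94%, against 7.61%, 10.9%, 7.74% and 10.3%. In the test across times they numbered 23 in spleen (28.4%, against 6.94%) and 5 in liver (6.17%, against 9.28%). The share stood above that of all probes by the most at 18 hours and across times in spleen, and below it in each liver comparison.

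Spleen at 18 hours had the most one-sided differences. Of the 81 probes 74 were lower in OPP mice, with a median of -0.23, against -0.04 over all probes, and all 17 probes of complex V and all 5 of complex II were lower. For 46 probes (56.8%) the 3 OPP arrays lay below the 3 water arrays, as 10.7% of all probes did. Cox7c, a small complex IV subunit, had ratios of 0.826, 0.786 and 0.765 in OPP mice and 1.03, 1.01 and 1.01 in water mice, a difference of -0.36 (SE 0.09, adjusted p = 0.426). Uqcrh, the hinge protein of complex III, had 0.779, 0.784 and 0.776 in OPP mice and 1.00, 0.947 and 1.01 in water mice, a difference of -0.34 (SE 0.09). A probe of Ndufs4, a complex I subunit, had 0.80, 0.847 and 0.79 in OPP mice and 1.01, 1.01 and 0.990 in water mice, with -0.31 (SE 0.09). The groups did not overlap for these genes, yet each adjusted p over all probes was 0.426. The proliferation markers overlapped between the drinks, with medians of -1.27 to -0.62 in OPP mice and -1.10 to -0.44 in water mice. After centring the members' median was -0.21, and -0.24 without the arrays with raised hepatocyte markers, which include 2 of the 3 water arrays.

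**Figure D4:**
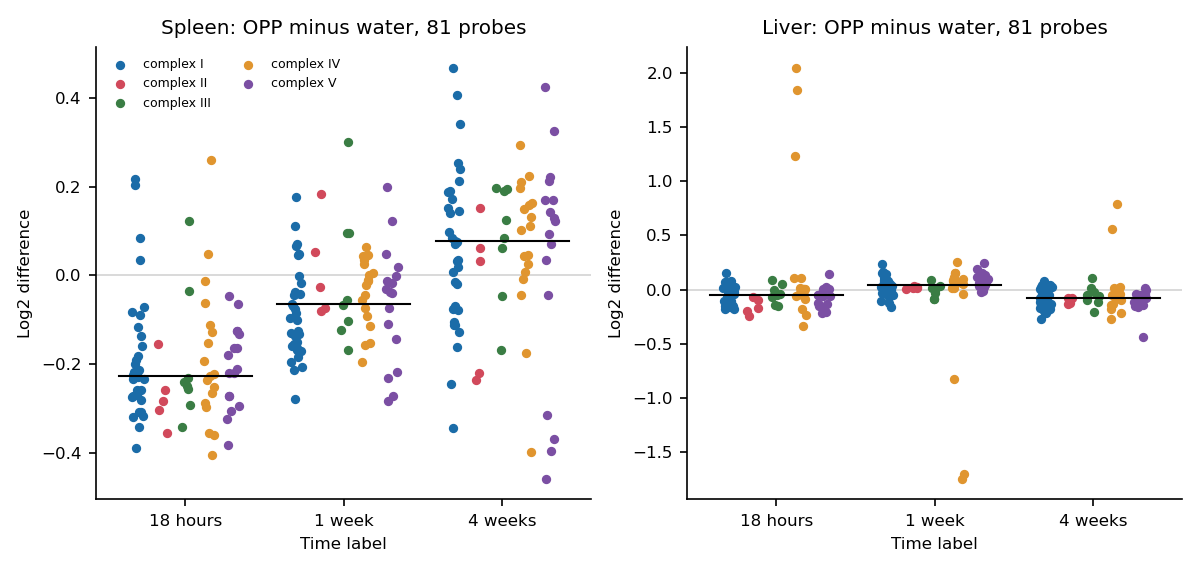
Difference in log2 ratio between OPP and water (vertical axis) at each time (horizontal axis) for each of the 81 probes, coloured by complex, with a bar at the median, in spleen (left) and liver (right, on a wider scale). In spleen the median is -0.23 at 18 hours, -0.06 at 1 week and 0.08 at 4 weeks. In liver the complex IV points far from 0 are the isoforms Cox6a2, Cox7a1 and Cox8b.

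At the later times in spleen the differences went both ways. At 1 week the median was -0.06, and the smallest p belonged to Uqcrq at 0.30, Atp5c1 at -0.23 and Ndufs4 at -0.21 (adjusted p = 0.402 or more). At 4 weeks 56 probes were higher in OPP mice and the median was 0.08. A probe of Ndufa5, a complex I subunit, had 1.45, 1.61 and 2.04 in OPP mice and 1.31, 1.21 and 1.13 in water mice, a difference of 0.47 (SE 0.12, adjusted p = 0.108). Cox7b had 1.34, 1.01 and 0.986 in OPP mice and 1.48, 1.51 and 1.37 in water mice, with -0.40 (SE 0.12, adjusted p = 0.164), and a probe of Atp5j had -0.46 (SE 0.14, adjusted p = 0.178). Over the mean of 3 times Cox7b came nearest to the threshold at -0.25 (SE 0.07, adjusted p = 0.0571), followed by Ndufc2 at -0.28 and Atp5e at -0.26. The count for that mean rose to 8 without replicate 3 of the water group at 1 week, to 4 without replicate 1 of the OPP group at 4 weeks and to 3 without replicate 3 of the water group at 18 hours. At 4 weeks it rose to 3 without replicate 1 of the OPP group. That count also rose with array weights and with the compared arrays only, as given at the end. The share of all probes called in these fits was not worked out.

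In liver the medians stayed between -0.08 and 0.05. At 18 hours Cox7a2 had ratios of 0.844, 0.768 and 0.986 in OPP mice and 1.08, 1.09 and 1.09 in water mice, a difference of -0.34 (SE 0.11, adjusted p = 0.522). It had -0.27 at 4 weeks and, over the mean of 3 times, -0.22 (SE 0.06, adjusted p = 0.163). At 1 week the smallest p belonged to Ndufv3 at 0.23 (SE 0.08, adjusted p = 0.233), with 1.15, 1.26 and 1.28 in OPP mice and 1.07, 1.07 and 0.991 in water mice, then Atp5g2 at 0.19 and Atp5e at 0.25. At 4 weeks it belonged to a probe of Atp5j, with 0.995, 0.924 and 0.870 in OPP mice and 1.25, 1.12 and 1.42 in water mice, a difference of -0.44 (SE 0.11, adjusted p = 0.165). A probe of Ndufa5 had -0.27 at 4 weeks and -0.19 over the mean. The count for the mean rose to 1 without replicate 3 of the OPP group at 4 weeks.

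The muscle and brown-fat isoforms of complex IV had the widest range of the members in liver. Cox6a2, the heart and skeletal muscle form of subunit VIa, had ratios of 0.979, 4.85 and 14.1 in OPP mice at 18 hours, 1.35, 0.896 and 1.01 at 1 week and 1.01, 1.05 and 3.69 at 4 weeks. In water mice it had 0.987, 0.993 and 0.970 at 18 hours, 0.952, 1.13 and 42.2 at 1 week and 0.974, 0.897 and 0.874 at 4 weeks. Cox8b and Cox7a1, forms of muscle and brown fat, reached 37.1 and 10.4 on the same water array of 1 week. These high values lay on the 4 arrays with raised muscle markers, and the correlation with the median of those markers over the 18 liver arrays was 0.996 for Cox6a2, 0.937 for Cox7a1 and 0.896 for Cox8b. In spleen the highest ratio of any of the 3 was 1.28.

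Cox8b was also raised on 2 arrays without raised muscle markers, at 3.25 in replicate 1 of the OPP group at 4 weeks and at 3.20 in replicate 3 of the water group at 4 weeks. On those arrays Ucp1, the uncoupling protein of brown fat, stood at 13.9 and 17.6 and the adipocyte hormone Adipoq at 2.22 and 2.46. Over all 18 arrays the correlation with Ucp1 was 0.876 for Cox8b, 0.731 for Cox7a1 and 0.633 for Cox6a2. Cox4i2 and Cox7b2 showed no such values, with highest ratios of 1.18 and 1.10 in liver. For Cox6a2 the difference between OPP and water at 18 hours was 2.05 (SE 1.04, adjusted p = 0.681) with all arrays and -0.0063 without the 4. The part of muscle or fat attached to the tissue in these values was not tested.

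**Figure D5:**
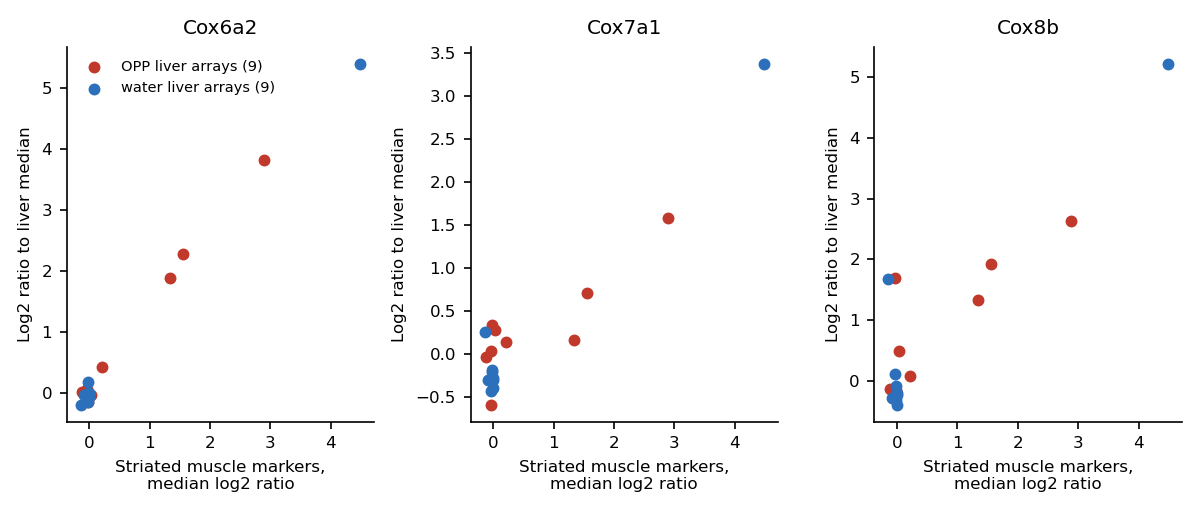
Log2 ratio of Cox6a2, Cox7a1 and Cox8b on each of the 18 liver arrays (vertical axes) against the median log2 ratio of the striated muscle markers on the same array (horizontal axes), with OPP arrays in red and water arrays in blue. The 4 arrays with marker medians from 1.33 to 4.49 carry the high values, and Cox8b is also high on an OPP and a water array whose marker medians are near 0.

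Genes that build, feed or regulate these complexes were described from lists. Assembly factors (41 probes of 30 genes), which insert cofactors and join subunits, had 27 probes higher (65.9%, against 27% of all probes) and none lower in OPP spleen at 4 weeks against 18 hours, and 20 higher (48.8%, against 23%) and none lower in water spleen. Their median differences were 0.43 and 0.27. Cmc2, a complex IV biogenesis factor, and Cox11, which delivers copper to complex IV, rose by 1.18 and 1.02 in OPP mice and by 0.73 and 0.63 in water mice. In liver 16 and 10 assembly probes rose in OPP mice at 1 and 4 weeks (39% and 24.4%, against 14.7% and 13.7%). In water mice 2 and 5 rose (4.88% and 12.2%, against 4.46% and 5.91%), at 1 week a share near that of all probes. Coa5, a complex IV assembly factor, fell in all 4 liver comparisons, by 0.62 and 0.66 in OPP mice and by 0.59 and 0.56 in water mice. Electron carriers and feeders (20 probes of 15 genes) had 17 probes higher in OPP spleen (85%) and 7 in water spleen (35%) at 4 weeks, with Cyc1, cytochrome c1 of complex III, at 0.92 and 0.42.

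Citric acid cycle enzymes (17 probes of 13 genes) had 10 probes higher (58.8%) and 1 lower, of Pdhb at -0.37, in OPP spleen at 4 weeks, and 7 higher (41.2%) and none lower in water spleen, where 27% and 23% of all probes were higher. In liver they had 9 higher (52.9%, against 14.7%) and 1 lower in OPP mice and 8 higher (47.1%, against 4.46%) and 1 lower in water mice at 1 week. Cs, citrate synthase, rose there by 1.35 and 1.17, and Pdha1, a subunit of pyruvate dehydrogenase, by 0.73 and 0.87. The probe that fell was of Suclg1, at -0.41 and -0.60, while another probe of that gene rose by 0.51 and 0.47. Regulators of mitochondrial biogenesis (17 probes of 13 genes) had 9 probes higher in OPP spleen (52.9%) and 6 in water spleen (35.3%) at 4 weeks. Among them Tfam, which packages and transcribes mitochondrial DNA, rose by 0.85 and 0.54, and Nrf1 by 0.81 and 0.64. Gabpa rose in liver of OPP mice by 0.51 at 1 week and 0.66 at 4 weeks, and no regulator was called in liver of water mice at 4 weeks. Atpif1, the inhibitor of the ATP synthase, rose by 1.01 in OPP spleen and 0.67 in water spleen at 4 weeks, and fell by 0.32 in OPP liver at 4 weeks.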

How the data were processed

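The deposited value table of the authors holds linear ratios, scaled so that the median of a probe across one tissue's 18 arrays is 1, as the values themselves show. Background correction, scaling and software are not given in the sources used here. A second table with 72 columns, holding detection p-values and signals before normalisation, was not used, because its column names match no sample label. Symbols came from GEO's platform annotation. The ratios were put on the log2 scale without offset or filter. For each tissue limma 3.58.1 (in R 4.3.3) was fitted with 6 group means, which left 12 residual degrees of freedom. A probe was called where its p, adjusted by the Benjamini-Hochberg method over the 23982 probes, was under 0.05. Positive differences mean higher in OPP or at the later time; SE is the model's standard error, with 3 arrays a group. The p-values measure the spread between arrays, which may be technical, and the number of arrays limits the precision. The code was tested on simulated data.

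The members, gene lists, marker lists and tests were chosen with earlier results of these data known. The comparisons of times in OPP mice, the robust variance prior and the fits without arrays with raised hepatocyte or muscle markers were added after the data were seen. Named members were up to 4 rises and 4 falls by size among called probes whose groups did not overlap, or else the 3 smallest p. Catalytic subunits, tissue-restricted isoforms, genes whose probes differ in sign and called genes of the lists were named as well. Other members are named to account for the counts and were chosen after their values were seen. Alternatives were array weights, a block for the replicate number, a fit to the compared arrays, centring, quantile normalisation, an offset of 0.1, the probes of larger SD, the mean of a gene's probes and leaving out each array.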

Additional observations from a re-analysis of the deposited data

Results flagged for a closer look

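For 15 pairs of a probe and a drink, of 13 genes, every 4-week array lay above every 18-hour array in one tissue and below in the other. The share of all probes that did so, called or not, was not worked out. In spleen alone every 4-week array lay higher for 80.2% of the members in OPP mice and 81.5% in water mice. Of all probes 36.2% and 37.1% did. In liver alone every 4-week array lay lower for 11.1% and 8.64% of the members, and for 8.11% and 9.5% of all probes. The difference between the tissues was not tested, since each tissue has its own ratios and its own fit. In 3 of the pairs the change was called in both tissues. Ndufc2, a membrane-arm subunit of complex I, differed by 0.41 in spleen and -0.35 in liver of OPP mice, and by 0.41 and -0.39 in water mice. Atp5k, the e subunit of the ATP synthase, differed by 0.58 in spleen and -0.58 in liver of water mice.

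The other pairs were not called in at least 1 tissue, and their values are for spleen and then liver. Cox7b, a small complex IV subunit, had 0.23 and -0.56 in OPP mice and 0.28 and -0.41 in water mice. In OPP mice a probe of Ndufc1 had 0.68 and -0.075, Ndufb4 had 0.54 and -0.28, and Ndufb2 had 0.42 and -0.29. A probe of Ndufv3 had -0.17 and 0.45 there, and Cox7a1, a muscle isoform, had 0.17 and -0.99. Muscle markers were raised in liver replicates 2 and 3 of the OPP group at 18 hours and replicate 3 at 4 weeks. Over the liver arrays Cox7a1 had a correlation of 0.937 with their median. In water mice Uqcrfs1 had 0.53 and -0.33, Atp5e had 0.43 and -0.32, and a probe of Atp5j had 0.36 and -0.30. Atp5pb had 0.29 and -0.31 there, and Cox4i2 had -0.18 and 0.18.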

How the results depend on the processing

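Of the values of named members under alternatives, 1103 kept their call and direction, 105 lost the call, 25 gained one and 1 reversed: Cox6a2 in liver at 18 hours, OPP minus water, at -0.0063 without the arrays with raised muscle markers. Of the members' medians 268 moved by less than the spread between arrays and 10 by more. The 268 include fits that cannot move such a median: the block, the compared arrays only and the robust prior. Leaving out arrays with raised markers cannot move it either where none of them is in the comparison. Counts of called members changed as follows, and the cause was not tested beyond the arrays or probes named. For fits with an array left out, here and above, the share of all probes called was not worked out. Nor was it for the block, the weights, the compared arrays only, the offset, the robust prior or the probes of larger SD. For OPP minus water it was worked out in the main fit only. In spleen of water mice at 4 weeks 42 became 16 after centring, 11 after quantile normalisation and 0 without the arrays with raised hepatocyte markers, and 14 to 43 with an array left out. In spleen of OPP mice at 4 weeks 61 became 55 to 61 with an array left out. In spleen of OPP mice at 1 week 2 became 1 with the replicate number as a block, 7 with array weights, 5 with the compared arrays only, 6 after centring, 1 with an offset of 0.1, 5 among probes of larger SD, 0 without the arrays with raised hepatocyte markers, and 0 to 1 with an array left out. In spleen of water mice at 1 week 0 became 1 with the block, 2 after quantile normalisation, and 0 to 3 with an array left out. For OPP minus water in spleen, 0 at 4 weeks became 11 with weights, 4 with the compared arrays only, and 0 to 3 with an array left out. For the mean of 3 times in spleen 0 became 1 with the block, 4 with weights, 1 with a robust prior, and 0 to 8 with an array left out. In liver of OPP mice at 1 week 31 became 16 after quantile normalisation, 9 without the arrays with raised muscle markers and 16 to 42 with an array left out. At 4 weeks 25 became 16, 3 and 16 to 25 under the same settings. In liver of water mice at 1 week 17 became 11 with the compared arrays only and 6 to 18 with an array left out, and at 4 weeks 26 became 14 to 30. For OPP minus water in liver, 0 at 4 weeks became 1 after quantile normalisation, and for the mean of 3 times 0 to 1 with an array left out. The replicate numbers of the labels did not pair the arrays: of 42 pairs 7 had deviations with a correlation over 0.1, the range was -0.29 to 0.23, in 0 of 14 comparisons did every pair pass, and 16 arrays correlated best with their own number. With 3 arrays a group the number of arrays limits the precision, and signal over background is unknown.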
